A study of Mus musculus with 6 samples.

Results

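Away from chromosome 17, where Cyp1b1 lies, 10 gene symbols were followed whose lung RNA levels separated the 2 genotype labels of the study completely or almost on-off: Nnt, Entpd4, Entpd4b, Gm16867, Gm13301, Gm42031, Gm6969, Fank1, Cd59a and Camk2b. They fill 12 of the 21900 rows of the deposited table, because Nnt and Gm13301 each occur under 2 gene identifiers. The members were chosen by their measured levels in these same libraries, so a member's difference between the labels is a description and carries no test. The whole lungs came from mice fed a high fat diet for 10 weeks. Of the 6 RNA-seq libraries, 3 are labelled wild type (1 and 2 from females, 3 from a male) and 3 are labelled knockout for Cyp1b1, a cytochrome P450 gene (again 1 and 2 from females, 3 from a male). The labels give neither the ages, nor the strains, nor the kind of Cyp1b1 allele, nor whether the labelled wild type mice were littermates. Levels are CPM, reads of a gene per 1000000 reads that the authors assigned to genes, and are listed in the order of libraries 1, 2 and 3 of a label.

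Inbred mouse strains differ at many loci, by sequence changes inside genes and by the number of copies of whole chromosomal segments. When a targeted allele made in cells of one strain is kept on another strain, DNA of the donor strain can stay around the target and elsewhere. Nnt is a textbook case of such a difference: it encodes the proton-pumping transhydrogenase of the inner mitochondrial membrane, which makes NADPH, and the C57BL/6J substrain carries a deletion inside the gene that other strains lack. Where the reference genome holds near-identical copies, a short read can be placed at either, so the level of a copy also depends on how the reads of its twin were assigned.

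The members fall into groups by what their sequences share, as counted over all runs of 50 bases in their GENCODE M21 transcripts (mm10, either strand). Entpd4 and Entpd4b, which encode the same Golgi and lysosomal nucleotide diphosphatase, share 100% of their 8206 distinct runs with each other. Gm16867 shares 98.2% of its runs with other genes, mostly with Gm27177. The Nnt row ENSMUSG00000116207 has 1 transcript, and all 3290 of its runs also occur in the Nnt row ENSMUSG00000025453. For Gm13301 the share is 86.2%, for the pseudogene Gm6969 69.3% and for the noncoding gene Gm42031 59.04%. By contrast Cd59a shares 3.87% of its runs, Camk2b 0.159%, and neither Fank1 nor Cyp1b1 shares any.

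A pair of stretches shows how little separates Gm6969 from Cox7a2l, the chromosome 17 gene that it copies and that encodes an assembly factor of respiratory chain supercomplexes. The 342 bases of Gm6969 align to the 336 coding bases of Cox7a2l from end to end, with 334 identical bases, 2 substitutions (T220A and C309T, the Cox7a2l base first, counted from the first base of Gm6969) and 1 run of 6 additional bases, which the capitals mark. The Gm6969 stretch is chr12:24638762-24638827 on the minus strand, and that of Cox7a2l is chr17:83504100-83504117 in exon 2 joined to chr17:83502696-83502737 in exon 3, also minus. As background, the Cox7a2l allele of C57BL/6 mice is known to be shorter than that of several other strains.
Gm6969: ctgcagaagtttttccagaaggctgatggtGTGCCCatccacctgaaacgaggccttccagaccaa
Cox7a2l: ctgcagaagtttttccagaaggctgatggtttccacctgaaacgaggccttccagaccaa

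The first 60 coding bases are shown for a pair of copies that reads cannot tell apart and for a pair that is less alike. Entpd4 (chr14:69347587-69347594 and chr14:69349073-69349124, plus strand) and Entpd4b (chr14:69565837-69565844 and chr14:69567323-69567374, plus strand) have 0 differences in the 60 bases shown and 0 in all 1842 coding bases. Cd59a (chr2:104104189-104104248, plus strand) and its neighbour Cd59b (chr2:104078876-104078935, plus strand) have 1 difference in the 60 bases, in capitals, and are 88.2% identical over the 346 coding bases that align.
Entpd4: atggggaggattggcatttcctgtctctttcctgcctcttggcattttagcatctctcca
Entpd4b: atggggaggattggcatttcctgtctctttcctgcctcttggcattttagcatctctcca
Cd59a: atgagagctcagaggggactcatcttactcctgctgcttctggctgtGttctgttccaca
Cd59b: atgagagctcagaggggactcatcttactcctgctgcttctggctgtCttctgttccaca

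Facts of the whole table set the background for the members. Depth was from 20.2 to 27.6 M assigned reads (M, 1000000) per library, and a level worth 3 reads was between 0.109 and 0.148 CPM. Cyp1b1 (chromosome 17, 79701537 to 79715061) was between 12.5 and 19.04 CPM in the labelled wild type libraries and between 48.4 and 56.1 CPM in those labelled knockout. The targeted gene was thus higher under the knockout label. Which exons of Cyp1b1 the reads covered cannot be seen in gene-level values, and the kind of allele is not given. Each library is therefore called by its label. The lung markers matched the tissue, with the 7 alveolar type 2 markers summing to between 14447 and 20552 CPM. Labelled knockout 3 stood apart, with 8 neutrophil markers at 5979 CPM in sum against 120 to 226 CPM in the other 5 libraries. Leaving that library out moved the log2 difference of Fank1 from -1.49 to -1.20 and that of Gm13301 (ENSMUSG00000096862) from -1.86 to -2.13. The direction of every member was fixed by the choice of labels that do not overlap. Of 17382 genes tested by limma with a model of label and sex, 2 (0.0115%) passed an adjusted p of 0.05 for the label, and 892 had an unadjusted p under 0.05. These 2 were the member Gm16867, which was chosen on this contrast, and Gm47283, named after its values were seen. The labels did not overlap for 1655 genes (9.52%), with the libraries labelled knockout above in 631 (3.63%) and below in 1024 (5.89%). This split depends on scaling: it was 873 and 651 after quantile normalization and 1199 and 571 after median centring.

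All 12 member rows were tested, and all 12 had labels that did not overlap, as their choice required. In 6 rows (Nnt under both identifiers, Gm42031, Gm6969, Cd59a and Camk2b) the libraries labelled knockout were higher, and in 6 (Entpd4, Entpd4b, Gm16867, Gm13301 under both identifiers and Fank1) they were lower. The median size of the difference was 1.46 on the log2(CPM + 0.5) scale for the members and 0.161 for all genes tested, and 10 of the 12 rows but 304 genes (1.75%) of all tested reached a log2 difference of 1. Setting the 2 rows that lie below the floor in every library labelled knockout to their bounds gives a median of 1.46 as well. The gap between the nearest libraries of opposite label was widest for Gm16867 (3.83 in log2) and narrowest for Entpd4 (0.34). Of the 12 genes in the table with a gap of at least 1, 6 were member rows and 3 lay on chromosome 17. At a gap of at least 0.5 there were 73 genes, of which 11 were member rows. By position, 10 of the 73 lay on chromosome 17, 3 on X or Y and 59 on other autosomes. The 59 include the member rows that have a position and reach this gap. The members are therefore a selection and not the full set.

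**Figure D1:**
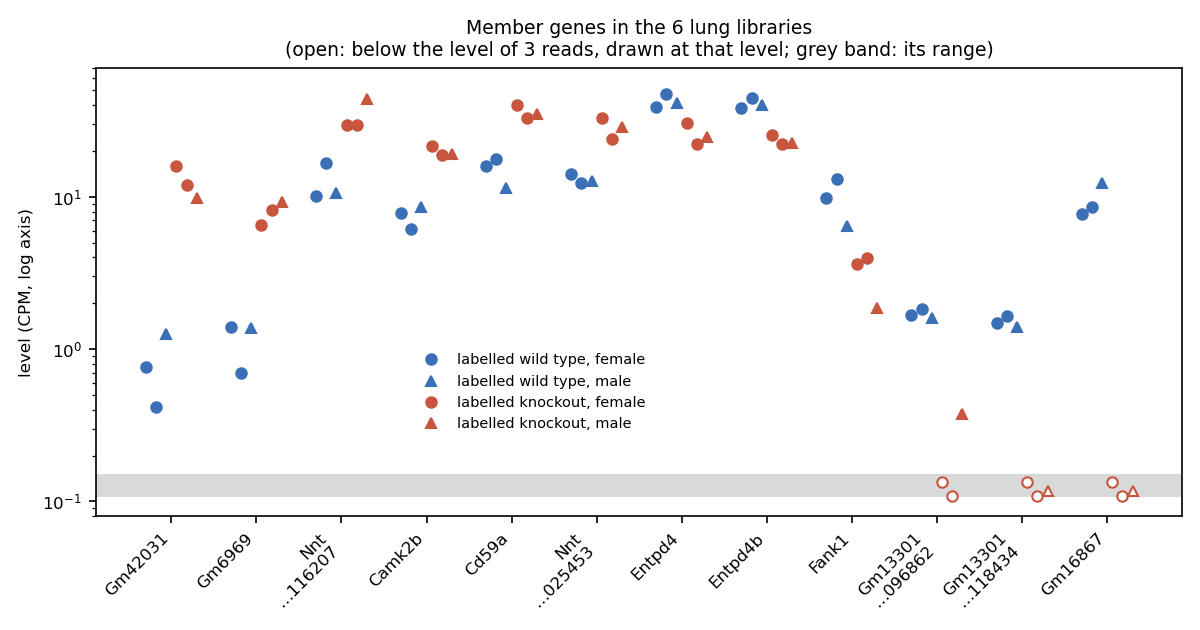
Level of each member row in CPM (log axis) in the 6 libraries, blue for labelled wild type, red for labelled knockout, circles for females and triangles for males; open symbols lie below the level of 3 reads and are drawn at that level, and the grey band is its range. Red lies above blue in the 6 rows on the left from Gm42031 to Nnt (ENSMUSG00000025453) and below it in the other 6.

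**Figure D2:**
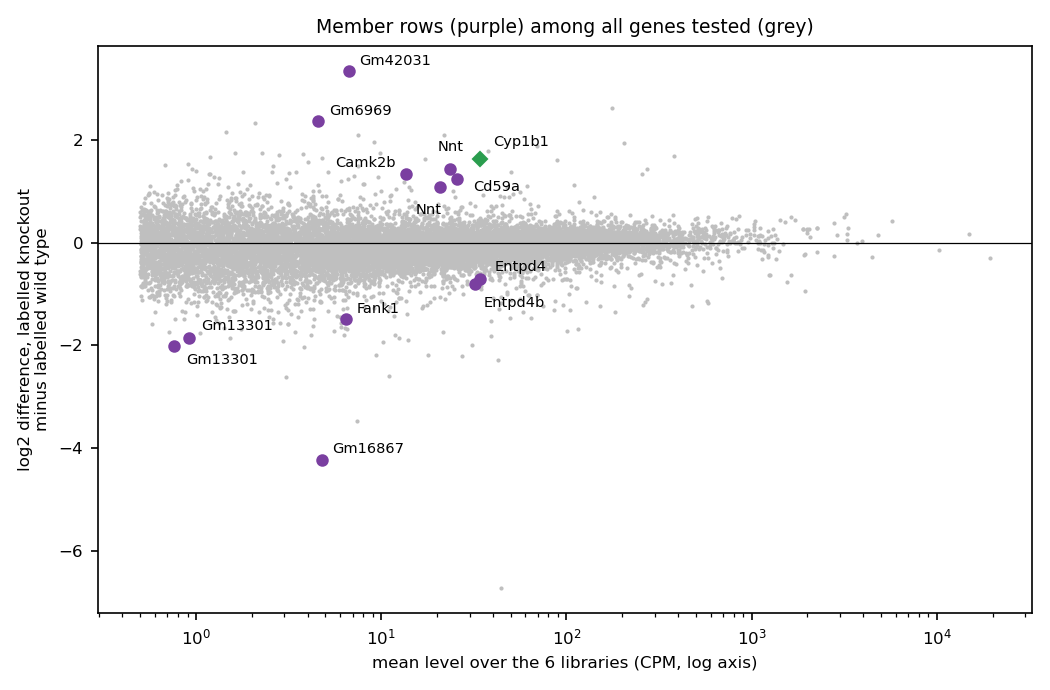
Log2 difference between the labels against the mean level over the 6 libraries (CPM, log axis) for the 17382 genes tested (grey), the 12 member rows (purple) and Cyp1b1 (green). Gm16867 and Gm42031 lie farthest from 0 among the members, at -4.23 and 3.34.

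Nnt (chromosome 13, 119335448 to 119408997, minus strand) was higher in every library labelled knockout. Its main row (ENSMUSG00000025453, 5 transcripts) was at 14.1, 12.3 and 12.7 CPM in the labelled wild type libraries against 33.1, 24.1 and 28.7 CPM in the labelled knockout ones. The row ENSMUSG00000116207, which lies within the same span, was at 10.1, 16.8 and 10.7 CPM and at 29.4, 29.5 and 44.01 CPM in the same order. In both rows the lowest library labelled knockout lay above the highest labelled wild type. Because the rows share sequence, their sum is the safer reading: 25.6 ± 3.06 CPM (SD, n = 3) for labelled wild type against 62.9 ± 9.53 CPM (SD, n = 3) for labelled knockout, 2.46 times as much. The share of the sum that fell to ENSMUSG00000025453 ranged from 39.4% to 58.2% over the 6 libraries, without a separation by label. These are gene-level values, so which exons of Nnt the reads covered was not tested, and in bulk lung more or fewer cells of a type and more or less RNA per cell cannot be told apart. Other genes of mitochondrial NADPH supply and redox defence were read beside Nnt: of 17 tested, 0 passed limma, 1 had an unadjusted p under 0.05, and the median log2 difference was -0.01. Without overlap were 1 higher and 1 lower row, against a background of 9.52% in either direction. The 2 with the smallest p were Sod2 and Idh2 (limma adjusted p = 0.775 for each). Sod2, mitochondrial superoxide dismutase, lies on chromosome 17 and was the lower row, with means of 143.9 CPM (labelled wild type) and 116.7 CPM (labelled knockout). Idh2, which makes NADPH from isocitrate, was at 117.9 and 103.8 CPM.

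On chromosome 14 a duplicated segment of the reference holds 3 members. Entpd4 (69337174 to 69367270, plus strand) and Entpd4b (69555424 to 69585520, plus strand) both span 30097 bases, with starts 218250 bases apart. The same spacing of 218250 bases separates Gm20236 from Gm37094 and Gm31748 from Gm37847, 2 pairs of low rows that carry identical values in all 6 libraries. Gm38378 and Gm37513 are 218275 bases apart and also identical in value. Those 6 genes were named after their values were seen. Gm16867 (69363504 to 69503362, minus strand, protein coding) starts between the copies and overlaps the end of Entpd4. Gm27177 overlaps Entpd4b in the corresponding place. As the strand setting of the counting is not given, reads of Entpd4 and of the antisense Gm16867 cannot be told apart where the genes overlap.

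Entpd4 was at 38.5, 47.4 and 41.1 CPM in the labelled wild type libraries against 30.4, 22.1 and 24.7 CPM in the labelled knockout ones. Entpd4b was at 38.5, 44.7 and 40.3 CPM, and then at 25.3, 22.1 and 22.4 CPM. Both rows were lower in every library labelled knockout, and Entpd4 took between 50.01% and 54.6% of the sum of the copies in each library. Since their transcripts share every run of 50 bases, the rows are not 2 separate measurements. The sum was 83.5 ± 7.75 CPM (SD, n = 3) for labelled wild type against 48.96 ± 5.99 CPM (SD, n = 3) for labelled knockout, 0.586 of the former.

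Gm16867 was the member with the widest gap between the labels. It was at 7.73, 8.53 and 12.4 CPM in the labelled wild type libraries, and at 0.0766, 0.0059 and 0.00163 CPM in those labelled knockout. The last 3 values lie below the level of 3 reads, so the labelled wild type mean of 9.55 ± 2.50 CPM (SD, n = 3) was at least 71.0-fold higher, taken against the highest single-library floor of 3 reads. Gm27177, its main partner in sequence, was at 5.17, 4.40 and 3.70 CPM and then at 1.16, 2.05 and 0.544 CPM. It was lower in every library labelled knockout, with a log2 difference of -1.57 (limma adjusted p = 0.646). At the outer ends of the segment lie Slc25a37 (69241848 to 69285112) and Loxl2 (69609068 to 69695834), whose labels overlapped. Gm20236 lies within the first of these and Gm37513 within the second, and Gm16867 shares 424 and 206 of its runs of 50 bases with Slc25a37 and Loxl2, so their values may not be independent of the members. Slc25a37, the mitochondrial iron importer mitoferrin, had labelled wild type and labelled knockout means of 74.2 and 74.8 CPM, and Loxl2, a lysyl oxidase of the matrix, 43.2 and 38.7 CPM. None of the other 7 Entpd genes separated the labels. Entpd1 (CD39), which degrades extracellular ATP on vessels and leukocytes, was at 90.6, 112.4 and 120.5 CPM and at 97.4, 105.2 and 164.6 CPM. Over the list of 14 ecto- and endo-nucleotidases the median log2 difference was -0.01, 0 passed limma and 1 had an unadjusted p under 0.05. The smallest p values belonged to Entpd8 (means of 2.33 and 1.19 CPM) and Entpd3 (6.03 and 8.38 CPM).

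**Figure D3:**
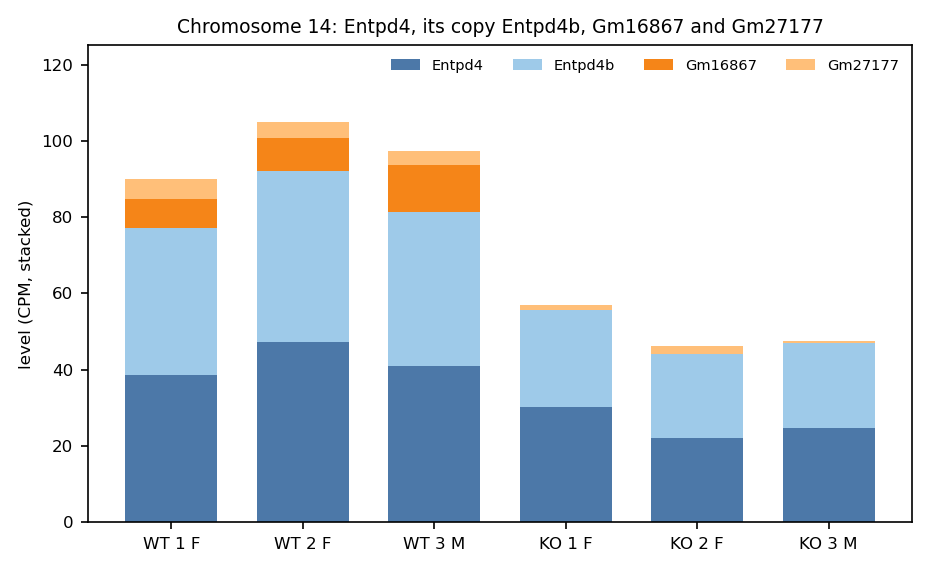
Stacked levels in CPM of Entpd4, Entpd4b, Gm16867 and Gm27177 in each library (WT, labelled wild type; KO, labelled knockout; F, female; M, male). The sum of Entpd4 and Entpd4b lies between 77.05 and 92.1 CPM in the 3 WT bars and between 44.1 and 55.7 CPM in the KO bars, and the orange Gm16867 segment is seen in the WT bars alone.

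Gm13301, a transcribed pseudogene, sits on chromosome 4 (42216908 to 42235604, plus strand) in a region of many recent copies of chemokine, Il11ra and Fam205 genes. The row ENSMUSG00000096862 was at 1.67, 1.84 and 1.59 CPM in the labelled wild type libraries against 0.0001, 0.0059 and 0.373 CPM in the labelled knockout ones. The row ENSMUSG00000118434, which was not found in GENCODE M21 and is given no position here, was at 1.48, 1.66 and 1.40 CPM and then at 0.0001 CPM in all 3, the value the authors added to every entry. Labelled knockout 3 thus kept a level above the 3-read floor in the first row and none in the second. For the second row the labelled wild type mean was at least 11.3-fold higher than the highest single-library floor of the libraries labelled knockout.

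Several genes around Gm13301 were lower in the same libraries. Of 41 tested genes within 1000000 bases, 9 had labels that did not overlap, 7 lower and 2 higher under the knockout label, against a background of 9.52% in either direction. Gm17167 overlaps Gm13301, shares 1534 of its runs of 50 bases and was at 4.13, 6.35 and 4.46 CPM and then at 1.14, 2.11 and 3.71 CPM. Gm5859, which begins 1255 bases after it and shares 1047 runs, was at 0.749, 1.94 and 1.45 CPM and then at 0.147, 0.0001 and 0.0001 CPM. Gm17081, 4121 bases away, shares 259 runs and had means of 2.07 and 0.462 CPM. Since these 3 genes share sequence with Gm13301, their values are not independent of it. Gm13305, the nearest tested gene before it, had means of 0.692 and 0.370 CPM with overlapping labels. Ccl21b encodes a chemokine that attracts T cells and dendritic cells. It was at 30.01, 33.4 and 30.03 CPM and then at 17.05, 21.3 and 18.3 CPM, with a log2 difference of -0.71 (limma adjusted p = 0.671). Of the 19 listed chemokine and Il11ra copies of chromosome 4, 10 were in the table and 8 were tested. Their median log2 difference was -0.63, 1 row did not overlap (lower), 0 passed limma and 4 had an unadjusted p under 0.05. Sequence shared among these copies was not counted, so the rows may not be separate measurements. This list was also chosen with earlier results of these data known. Gm10591, another of these copies, had means of 8.91 and 3.88 CPM with overlapping labels.

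Gm6969 (chromosome 12, 24638669 to 24639010, minus strand) measured 1.40, 0.699 and 1.37 CPM in the labelled wild type libraries against 6.50, 8.17 and 9.28 CPM in the labelled knockout ones. All 3 libraries labelled knockout were high, 6.89 times the labelled wild type mean. Cox7a2l, named after its values were seen, went the other way, at 129.6, 118.04 and 139.3 CPM and then at 95.6, 89.2 and 104.7 CPM, also without overlap. Summed, the pair was at 130.1 ± 11.0 CPM (SD, n = 3) and 104.5 ± 8.54 CPM (SD, n = 3), so in CPM the difference at Cox7a2l was larger than that at Gm6969. Gm6969 held 1.07%, 0.589% and 0.977% of the pair in the labelled wild type libraries and 6.37%, 8.39% and 8.15% in those labelled knockout. Cox7a2l lies 3.79 Mb from Cyp1b1, on the chromosome of the targeted gene. The 6 additional bases and T220A printed above are among the letters that decide whether a read matches Gm6969 or Cox7a2l better. The deposited values are per gene, so the locus from which the reads came cannot be told apart here. On chromosome 12 itself the nearest tested genes, Grhl1 (13.6 and 11.2 CPM in the label means) and Klf11 (44.8 and 44.95 CPM), overlapped between labels. Of 9 genes tested within 1000000 bases, 3 did not overlap, against a background of 9.52% in either direction. The 33.3% was the largest share around any member, though of few genes. Cys1, a gene of the primary cilium, was at 30.8, 37.1 and 28.9 CPM and then at 17.8, 22.4 and 17.8 CPM. Id2, an inhibitor of basic helix-loop-helix factors, was also lower (71.7 and 43.5 CPM in the means), and Mboat2, an acyltransferase of phospholipids, was higher (5.01 and 7.985 CPM).

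**Figure D4:**
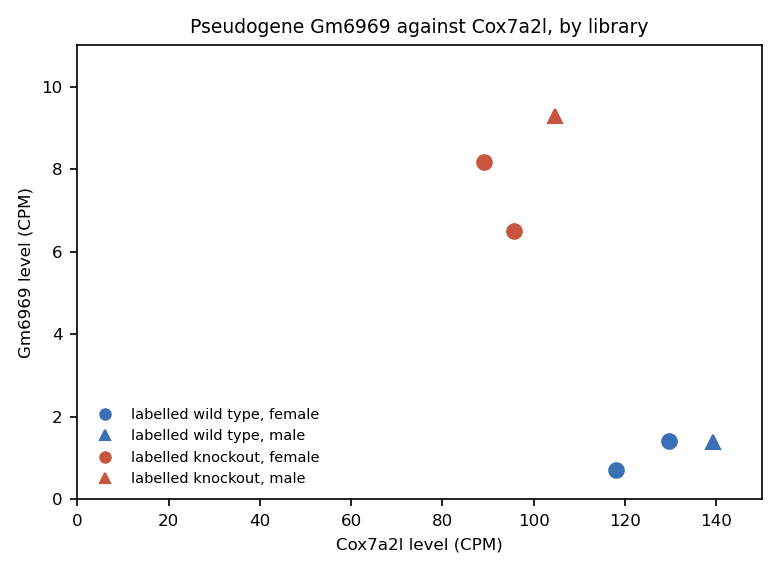
Level of Gm6969 against that of Cox7a2l, both in CPM, 1 point per library, blue for labelled wild type and red for labelled knockout, circles for females and triangles for males. The libraries labelled knockout lie above and to the left: Gm6969 is at 6.50 CPM or more where Cox7a2l is at 104.7 CPM or less.

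Gm42031, a long intergenic noncoding RNA on chromosome 8 (85125872 to 85132289, minus strand), had the largest difference upward among the members. It was at 0.766, 0.419 and 1.26 CPM in the labelled wild type libraries against 16.03, 12.01 and 9.75 CPM in the labelled knockout ones, a ratio of means of 15.5. Gm43305, on chromosome 14, shares 625 of its 1328 runs of 50 bases, with a longest common stretch of 184 bases, and was named after its values were seen. It was at 18.7, 18.4 and 38.5 CPM and then at 49.6, 38.5 and 48.6 CPM, higher in the libraries labelled knockout but with labelled wild type 3 and labelled knockout 2 nearly equal. No neighbour of Gm42031 was higher without overlap. Against a background of 9.52% in either direction, 5 of 47 tested within 1000000 bases did not overlap, and all 5 were lower. They include Junb, an AP-1 transcription factor induced by stress, with means of 471.1 and 267.1 CPM, and Syce2, a protein of the meiotic synaptonemal complex, with 1.91 and 0.778 CPM. The nearest, Zfp791, had means of 3.30 and 3.01 CPM.

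Cd59a encodes a membrane protein that stops the complement membrane attack complex from forming on the animal's own cells. On chromosome 2 (104095801 to 104115354, plus strand), it was at 16.0, 17.7 and 11.4 CPM in the labelled wild type libraries against 39.97, 32.99 and 34.97 CPM in the labelled knockout ones. The labels were far apart, with means of 15.03 ± 3.22 and 35.98 ± 3.59 CPM (SD, n = 3 each), a ratio of 2.39. Its paralog Cd59b just before it on the chromosome was low and unseparated, at 0.293, 0.445 and 0.939 CPM and then at 0.717, 0.725 and 0.351 CPM. Among 10 other complement regulators tested, Cd59b included, 0 passed limma, 1 had an unadjusted p under 0.05, and the median log2 difference was -0.09. Cpn1, a subunit of the carboxypeptidase that trims anaphylatoxins, was lower without overlap (4.17 and 2.27 CPM in the means), and Serping1, the C1 inhibitor, had means of 473.3 and 409.9 CPM.

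Camk2b, the beta subunit of calcium/calmodulin-dependent kinase II, is best known from neurons. On chromosome 11 (5969644 to 6066362, minus strand) it was at 7.87, 6.18 and 8.58 CPM in the labelled wild type libraries against 21.4, 18.9 and 19.1 CPM in the labelled knockout ones. The 3 libraries labelled knockout lay within a 1.14-fold range, and the ratio of the means was 2.62. The other 3 subunits of the kinase overlapped between labels. Camk2d, the form abundant in heart and smooth muscle, was at 95.0, 80.9 and 95.1 CPM and then at 91.1, 87.9 and 95.5 CPM. Camk2g was between 34.6 and 48.0 CPM over the 6 libraries, and Camk2a between 2.14 and 6.32 CPM. Of 13 CaM kinase and calmodulin genes tested, 0 passed limma and 1 had an unadjusted p under 0.05, with a median log2 difference of -0.03. Camkk1, an upstream kinase, had means of 20.3 and 14.003 CPM, and Camk2n2, an inhibitor of the kinase, 3.13 and 1.98 CPM. Markers of cell types that may hold Camk2b were read beside it. The 6 neuroendocrine markers summed to between 13.7 and 16.7 CPM for labelled wild type against 18.1 to 20.4 CPM for labelled knockout. The 5 Schwann cell markers summed to between 340.4 and 395.5 CPM against 408.9 to 552.2 CPM. Both sums were higher without overlap, though by smaller ratios than Camk2b. By row the lists were less uniform: in each, 5 rows were tested, 1 did not overlap (higher) and 0 passed limma. The background without overlap is 9.52% of all genes tested. Of these 11 markers, 0 lay below the floor in every library. The 9 cardiac muscle markers, which lungs show because heart-like muscle sheathes mouse pulmonary veins, ranged from 1397 to 1833 CPM and from 1221 to 2315 CPM, with overlap. The part of these cells in the Camk2b difference was not tested.

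Fank1 encodes a nuclear protein with a fibronectin type 3 domain and ankyrin repeats, known from testis and from cells with motile cilia. On chromosome 7 (133776861 to 133881532, plus strand) it was at 9.84, 13.1 and 6.40 CPM in the labelled wild type libraries against 3.63, 3.99 and 1.87 CPM in the labelled knockout ones. Every library labelled knockout was lower, and within each label the male library was the lowest. The 10 ciliated cell markers did not separate the labels: they summed to 853.9, 1092 and 665.0 CPM and to 912.2, 988.2 and 500.2 CPM, with a median log2 difference of -0.22, 0 passing limma for the label (also 0 with an unadjusted p under 0.05) and 0 below the floor in every library. Per 1000 CPM of these markers, Fank1 stood at 11.5, 12.0 and 9.63 CPM under the wild type label and at 3.98, 4.04 and 3.74 CPM under the knockout label. The ratio of means, labelled wild type over labelled knockout, was 2.82 on this scale and 3.09 in plain CPM. Tppp3 alone gave 442.1 of the 853.9 CPM of markers in labelled wild type 1, so the scale leans on that gene. The part of ciliated cells in the label difference of Fank1 was not tested. Adam12 and Bccip, the nearest tested genes, overlapped between labels, and Dhx32, a helicase gene that overlaps Fank1, was lower without overlap (31.3 and 26.2 CPM in the means).

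Sex was not used to choose the members and could be tested. Of 17382 genes, 145 (0.834%) passed limma for sex, and 0 of the 12 member rows did. Adjusted p ranged from 0.171 to 0.983 and log2 differences, male minus female, from -0.82 to 0.34. A single row, Fank1, had an unadjusted p under 0.05, with means over the 2 males and the 4 females of 4.14 and 7.64 CPM. Its log2 difference was -0.82 ± 0.25 (SE), with a limma adjusted p of 0.171. Of the 10 ciliated markers 1 passed for sex: Tppp3, a tubulin-binding protein (log2 difference -0.92, limma adjusted p = 0.0288). Their part in the sex difference of Fank1 was not tested. A different label effect in the sexes was called for 441 genes (2.54%) and for 0 member rows, none of which had an unadjusted p under 0.05 (limma adjusted p from 0.311 to 0.993). The sign is the same in both sexes for all 12 rows because the members were chosen for labels that do not overlap. For Gm42031 the log2 difference was 3.74 among females and 2.54 between males, and for Gm16867 -3.996 and -4.68. With 1 male per label, the spread of the interaction test comes from the females. Labelled knockout 3, the only male of its label, is the library that stood apart in neutrophil markers. A label effect that differs by sex therefore cannot be told apart from a difference of that library. The labels do not say in words that each library is a separate animal, so these p-values measure the spread between libraries.

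Position was another property on which the choice did not draw beyond keeping the members away from Cyp1b1. Within 1000000 bases of the 11 member rows that have a position, 218 other genes were tested. The labels did not overlap for 27 of them (12.4%, against 9.52% over all genes), 6 with labelled knockout above and 21 with it below. Of the 218, 0 passed limma and 18 had an unadjusted p under 0.05, against 892 of all 17382 genes tested. The count without overlap was 22 of 122 (18.03%) within 500000 bases and 37 of 353 (10.5%) within 2000000 bases. Each of these counts includes Gm27177, Gm17167, Gm5859, Gm17081, Fam205a3 and Fam205a4, all lower under the knockout label. They share runs of 50 bases with members (9 each for Fam205a3 and Fam205a4), so the counts are not independent of the members. By member the share ran from 33.3% around Gm6969 (3 of 9) and 22.0% around Gm13301 (9 of 41) down to 3.33% around the chromosome 14 block (1 of 30, Gm27177). Around Cd59a it was 1 of 19, namely Fbxo3 (76.9 and 67.2 CPM in the means), and around Fank1 1 of 14. Around Nnt it was 2 of 20, namely Fgf10, a growth factor of lung branching (23.9 and 29.5 CPM in the means), and 4833420G17Rik (40.1 and 31.7 CPM). Around Camk2b it was 5 of 38, among them Ogdh, an enzyme of the citric acid cycle (323.8 and 370.1 CPM), Tmed4 (80.8 and 63.2 CPM), Gm11964 (1.30 and 0.746 CPM) and Nudcd3, the nearest tested gene after it (92.1 and 104.8 CPM). Ccdc130 (9.38 and 6.61 CPM) was among the 5 around Gm42031. The other nearest tested genes had overlapping labels: Ykt6 before Camk2b (77.5 and 76.97 CPM), Paip1 after Nnt (67.7 and 71.2 CPM), Vps35 after Gm42031 (115.3 and 126.6 CPM), D430041D05Rik after Cd59a (2.89 and 4.12 CPM) and Gm27179 between Gm16867 and Entpd4b (0.545 and 0.747 CPM). Over the 218 genes the log2 difference ranged from -1.73 (Gm5859) to 0.68.

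**Figure D5:**
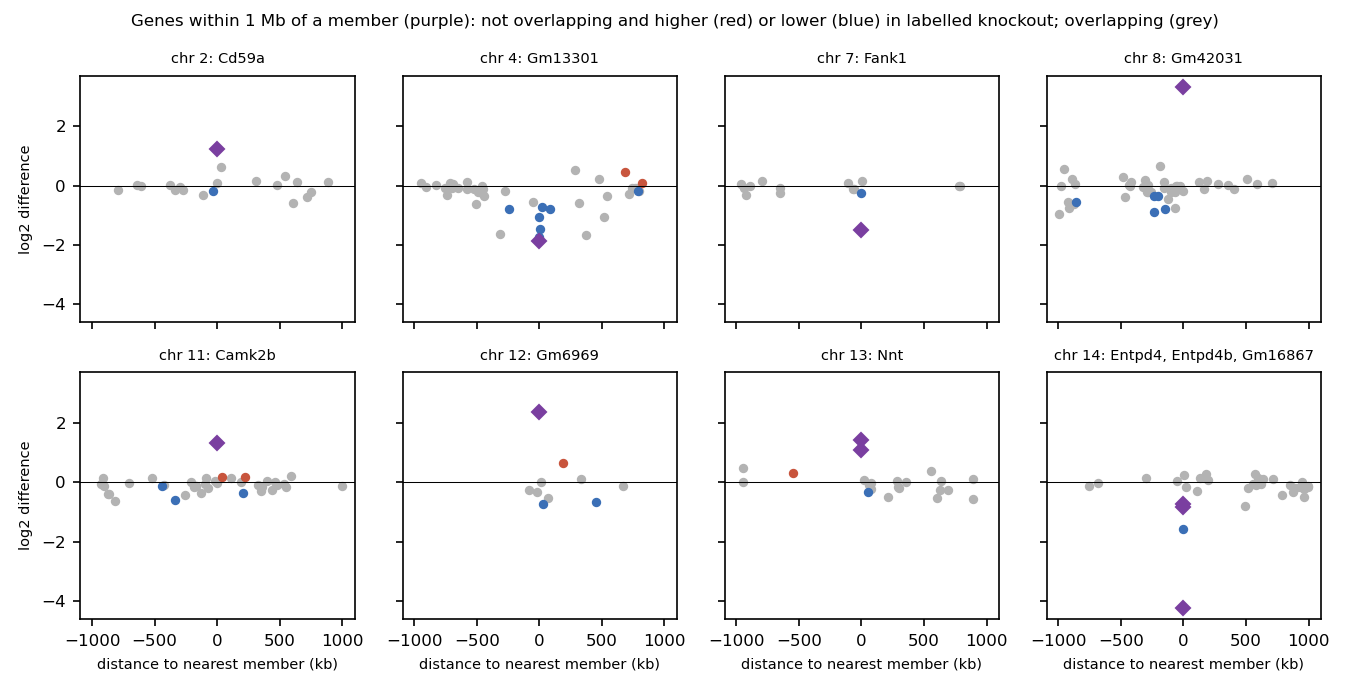
Log2 difference between the labels for tested genes within 1 Mb (1000000 bases) of a member, by distance to the nearest member in kb, 1 panel per chromosome; purple diamonds are members, red and blue are genes without overlap that are higher or lower in labelled knockout libraries, and grey are genes whose labels overlap. Blue points gather next to Gm13301 on chromosome 4, while the other panels hold between 1 and 5 coloured points each.

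A list of 16 genes known to differ between mouse strains or C57BL/6 substrains was read beside Nnt. Of 14 tested, 0 passed limma and the median log2 difference was -0.01. Of these 14, 3 did not overlap, against 9.52% of all genes tested, and 3 had an unadjusted p under 0.05. Wdfy1, an endosomal adaptor of innate sensing, was higher (39.7 and 72.4 CPM in the means). Its labelled wild type 3 (63.4 CPM) lay close to labelled knockout 3 (66.5 CPM). Ide, insulin-degrading enzyme, was lower (96.3 and 75.7 CPM). Over all 6 lists 76 rows were tested, 0 passed limma, 11 had an unadjusted p under 0.05 and 7 did not overlap. Of 105 cell type marker rows tested in 17 lists, 0 passed limma for the label, 6 had an unadjusted p under 0.05 and 2 did not overlap. Over all 17382 genes tested, 9.52% did not overlap and 892 had an unadjusted p under 0.05, which is the background for these counts too.

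Profiles most like each member were found as the smallest root mean square distance of log2 levels over the 6 libraries, each centred on its mean. The distance was smallest for Entpd4, at 0.095 from Nr1d2 and from Zfp867, and for Entpd4b, at 0.095 from Zfp867 and 0.103 from Gm7204. Cd59a lay 0.164 from Gm2808 and 0.184 from Fundc1, and Camk2b 0.206 from Gm11605 and 0.251 from Gm2808. For Nnt the nearest were Gm9403 (0.141) and Gm12929 (0.149) in 1 row, and Rspo4 (0.165) and 9130002K18Rik (0.227) in the other. Fank1 lay 0.248 from Dbp and 0.252 from Gm32857. Both Gm13301 rows lay nearest to Gm26510 (0.262 and 0.226), then to Gm17081 (0.276) and Qpct (0.254). Gm2808, Gm26510 and Qpct lie on chromosome 17, the chromosome of Cyp1b1, and Gm17081 shares sequence with Gm13301. Gm16867, Gm42031 and Gm6969 had counterparts at larger distances: their nearest genes were Igkv3-12 at 1.02, Gm49980 at 0.873 and Gm2395 at 0.516. Gm49980 shares 79 runs of 50 bases with Gm42031, so its profile may not be independent of that member. The second nearest were Gm32857 for Gm16867 at 1.25, Gcat for Gm42031 at 0.903 and Cyp1b1 for Gm6969 at 0.545. Among the members themselves the closest pair was Entpd4 with Entpd4b at 0.092. Next came Camk2b with Nnt (ENSMUSG00000025453) at 0.191 and Cd59a with that Nnt row at 0.212, 3 genes on different chromosomes. The members were chosen on these same values, so members with a like direction and size of difference lie close by that choice.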

How the data were processed

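The data are RNA-seq libraries of mouse lung, in 2 labelled groups of 3. The authors deposited a table of CPM values, 1 column per library, to which 0.0001 had been added throughout, as seen in the values. The submitters' processing notes name mm10, TopHat2 and Partek; for versions, annotation, filters and strand use, the sources used here give nothing. The members and lists were chosen with earlier results of these data known.

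Depth was read from the step between low CPM values. Between 82.2% and 83.4% of values worth up to 100 reads were whole multiples of it within 0.05, so whole reads could not be recovered and a count model was not run. Genes with a mean of at least 0.5 CPM were tested with limma 3.58.1 in R 4.3.3, using a variance trend, on log2(CPM + 0.5), with label and sex as terms and, separately, their interaction. This scale understates changes of low genes. Tests were two-sided with Benjamini-Hochberg adjustment over 17382 genes at a threshold of 0.05. The 3-read floor covers counting error only. The fit was tested on simulated data. Python 3.11.15, pandas 2.3.3, numpy 2.4.6, matplotlib 3.10.9 and Biopython 1.88 (alignment) did the rest. Of 21900 identifiers, 21846 were in GENCODE M21, whose mm10 positions and transcripts are used. By the rule, named genes were drawn from all member rows, Cyp1b1, the nearest tested neighbours and up to 3 non-overlapping ones within 1000000 bases, the 2 most alike genes per member, paralogs, and per list every gene that passed or the 2 of smallest p. The lists covered mitochondrial NADPH and redox, nucleotidases, complement regulators, CaM kinases and calmodulin, chromosome 4 copies, strain differences, and 17 cell types. Alternatives were other pseudocounts, filters, scalings, models, windows and leaving out each library.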

Additional observations from a re-analysis of the deposited data

How the results depend on the processing

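As the members were chosen for labels that do not overlap, leaving out libraries or changing the pseudocount cannot reverse them, and 0 reversals are no sign of stability. In size, 158 of 167 differences of members and Cyp1b1 under other settings stayed within 1 SD of the replicates and 9 moved by more. The pseudocount moved the low members, between -6.25 and -3.33 for Gm16867. Genes called for the label numbered 2, but 6 with no filter, quantile normalization, median centring or robust moderation, 4 in the 4 females only, and from 1 to 4 without 1 library. Genes without overlap numbered 5016 in the females only and from 2928 to 4230 without 1 library, and neighbours without overlap 64 and from 33 to 69, as fewer libraries overlap less. Genes called for sex ranged from 21 to 877 without 1 library, and those for the interaction from 255 to 696, with 0 when no filter was used; the cause was not tested. The interaction could not be fitted without a male library. No member passed for sex under any setting run. Median centring shifted the median of all genes from -0.06 to 0.05 (log2). No paired analysis was possible because the labels carry no replicate numbers. With 3 libraries per label, members at 1 to 2 CPM rest on few reads, and those that share sequence depend on how reads of copies were assigned.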
